A study of Mus musculus with 5 samples.

Results

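Genes for secreted and apical proteins of the uterine epithelium that respond to oestrogen or progesterone were followed by their RNA. Uteri of 15-day-old mice with a conditional deletion of Dicer (cKO) were compared with control uteri. The gene group held 9 genes chosen by name, with earlier results of these data known: Ltf, Clca1, Lrp2, Muc1, C3, Lcn2, Areg, Pigr and Wfdc2. All probes listed under these names were taken, 17 of the 45281 probes on the array. The array lists them as LTF, CLCA3 (now Clca1), LRP2, MUC1, C3, LCN2, AREG and PIGR; no probe carries the name WFDC2, and the 2 probes listed under its synonym 1600023A02RIK were used. Of the 17 probes, 13 were detected on at least 2 of the 5 arrays and tested, and they covered 7 of the 9 genes. Areg and Pigr had no tested probe.

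Dicer cuts microRNA precursors into mature microRNAs, and it was deleted here with Cre recombinase expressed under the progesterone receptor (PR-Cre). Total RNA of whole uteri was compared between 2 Dicer cKO pools (10 and 12) and 3 control pools (7, 9 and 11), each read on 1 Illumina bead array. All mice were of a mixed hybrid C57BL/6J;129S5/Brd background. The control mice are labelled wild type, and neither their alleles at Dicer or the Cre locus nor the number of uteri per pool is stated. Cells of the uterus that never express the receptor keep Dicer under this Cre. In whole-uterus RNA, fewer cells of a type and less RNA per cell cannot be told apart.

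Oestrogen and progesterone act on the uterine epithelium through nuclear receptors, in part directly and in part through signals from the stroma. The luminal and glandular epithelium answers with secreted proteins that enter the uterine fluid and with glycoproteins and receptors on its apical surface. At 15 days the mouse uterus is prepubertal and its glands are just forming.

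The labels name a human array, but the gene names in the files are those of mouse genes. On an array, between 47% and 49.5% of probes were detected, with 44 beads per probe at the median. Member probes were read from 27 to 60 beads, and the standard error of a bead mean was 2.41% to 7.85% of its intensity. Log2 signals correlated at 0.993 between the Dicer cKO pools, at 0.992 to 0.994 among control pools and at 0.977 to 0.989 between groups. The brighter Dicer1 probe read 8.62 and 8.75 in Dicer cKO pools, against 9.15, 9.08 and 9.12 in control pools, a difference of -0.43 ± 0.09 (SE; limma adjusted p = 0.0233), and the dimmer probe differed by -0.22 ± 0.13. The position of either probe relative to the deleted exons is unknown here, so they check the labels only in part. Of 24 epithelial markers on the array 21 were detected on every array, among them Krt8, Krt18 and Cdh1, while Epcam and Ehf were detected on none.

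Promoters are shown for the members whose brightest probe was called lower in Dicer cKO uteri (limma adjusted p under 0.05). They are marked for the steroid response letters they hold. RefSeq (build GRCm38.p6) gave a window of 250 bases before and 50 bases after the start for 8 of the 9 genes, Clca1 excepted. Capitals mark the oestrogen response half-site GGTCA on either strand, the progesterone response half-site AGAACA on either strand and the TATA box TATAAA.
Ltf (chr9:111019042-111019341, plus strand): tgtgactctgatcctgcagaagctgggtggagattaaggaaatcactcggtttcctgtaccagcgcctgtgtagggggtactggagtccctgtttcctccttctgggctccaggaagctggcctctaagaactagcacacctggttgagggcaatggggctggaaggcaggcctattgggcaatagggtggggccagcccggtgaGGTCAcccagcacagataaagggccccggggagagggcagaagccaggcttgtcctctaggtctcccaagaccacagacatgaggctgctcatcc
Lrp2 (chr2:69585980-69586279, minus strand): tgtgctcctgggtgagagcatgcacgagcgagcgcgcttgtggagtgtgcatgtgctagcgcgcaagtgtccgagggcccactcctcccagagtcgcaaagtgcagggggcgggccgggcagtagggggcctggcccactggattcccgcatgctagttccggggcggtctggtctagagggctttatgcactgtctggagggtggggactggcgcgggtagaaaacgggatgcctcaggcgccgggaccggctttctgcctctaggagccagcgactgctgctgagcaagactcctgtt
Muc1 (chr3:89228806-89229105, plus strand): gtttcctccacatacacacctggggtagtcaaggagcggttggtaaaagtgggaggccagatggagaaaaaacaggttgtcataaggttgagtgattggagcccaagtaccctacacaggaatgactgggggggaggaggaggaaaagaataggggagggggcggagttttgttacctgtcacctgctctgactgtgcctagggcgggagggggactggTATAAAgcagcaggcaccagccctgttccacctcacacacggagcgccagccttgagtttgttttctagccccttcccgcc
Wfdc2 (chr2:164562465-164562764, plus strand): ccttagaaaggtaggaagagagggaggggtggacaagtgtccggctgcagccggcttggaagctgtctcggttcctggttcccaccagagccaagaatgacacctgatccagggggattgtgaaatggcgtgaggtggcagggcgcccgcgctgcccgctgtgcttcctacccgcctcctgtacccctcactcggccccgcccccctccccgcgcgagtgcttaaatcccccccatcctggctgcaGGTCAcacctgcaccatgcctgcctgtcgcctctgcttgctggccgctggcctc
An oestrogen half-site was found in 5 of the 8 promoters, those of Ltf, C3, Areg, Pigr and Wfdc2, where 40.2% of 27025 promoters hold one. In Ltf it begins 45 bases before the start. The progesterone half-site was in the promoter of Pigr, against 19% of all promoters. The TATA box letters were in those of Muc1, C3 and Areg, against 14.2%. They begin 31 bases before the start in Muc1 and Areg, but at base 15 after the start in C3. The full oestrogen element, GGTCA and TGACC with 3 bases between them, which contains the half-site on both strands, was in 0 of the 8 and in 0.0666% of all promoters. The full progesterone element, AGAACA and TGTTCT with 3 bases between them, was likewise in 0 of the 8 and in 0.0037% of all.

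Every tested member read lower on average in Dicer cKO uteri, and for 5 of 7 genes the brightest probe fell past the test. Clca1 and Lrp2 had the largest differences, followed by Ltf, Muc1 and Wfdc2, while C3 and Lcn2 did not pass. No member was called higher, against 2.35% of all tested probes. Values are normalised log2 signals, each difference is the Dicer cKO mean minus the control mean with its fitted standard error, and a probe was called at a limma adjusted p under 0.05 over all 22845 tested probes. Among the brightest probes of all 15733 gene names tested on the array, 3.88% were called lower and 2.68% higher. Counted by probe, 11 of 13 were lower, against 3.52% of all tested probes. Both Dicer cKO pools lay below all control pools for 12 of 13, against 17.1%, and above them for none, against 19.6%. The probes of Clca1 and Lrp2 that were detected on control arrays alone passed the detection filter through that group. Of the 11 probes detected on every array, 9 were called lower, against 3.36% of the 19681 such probes. Because the genes were chosen with earlier results of these data known, these shares describe the group and do not test it.

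**Figure D1:**
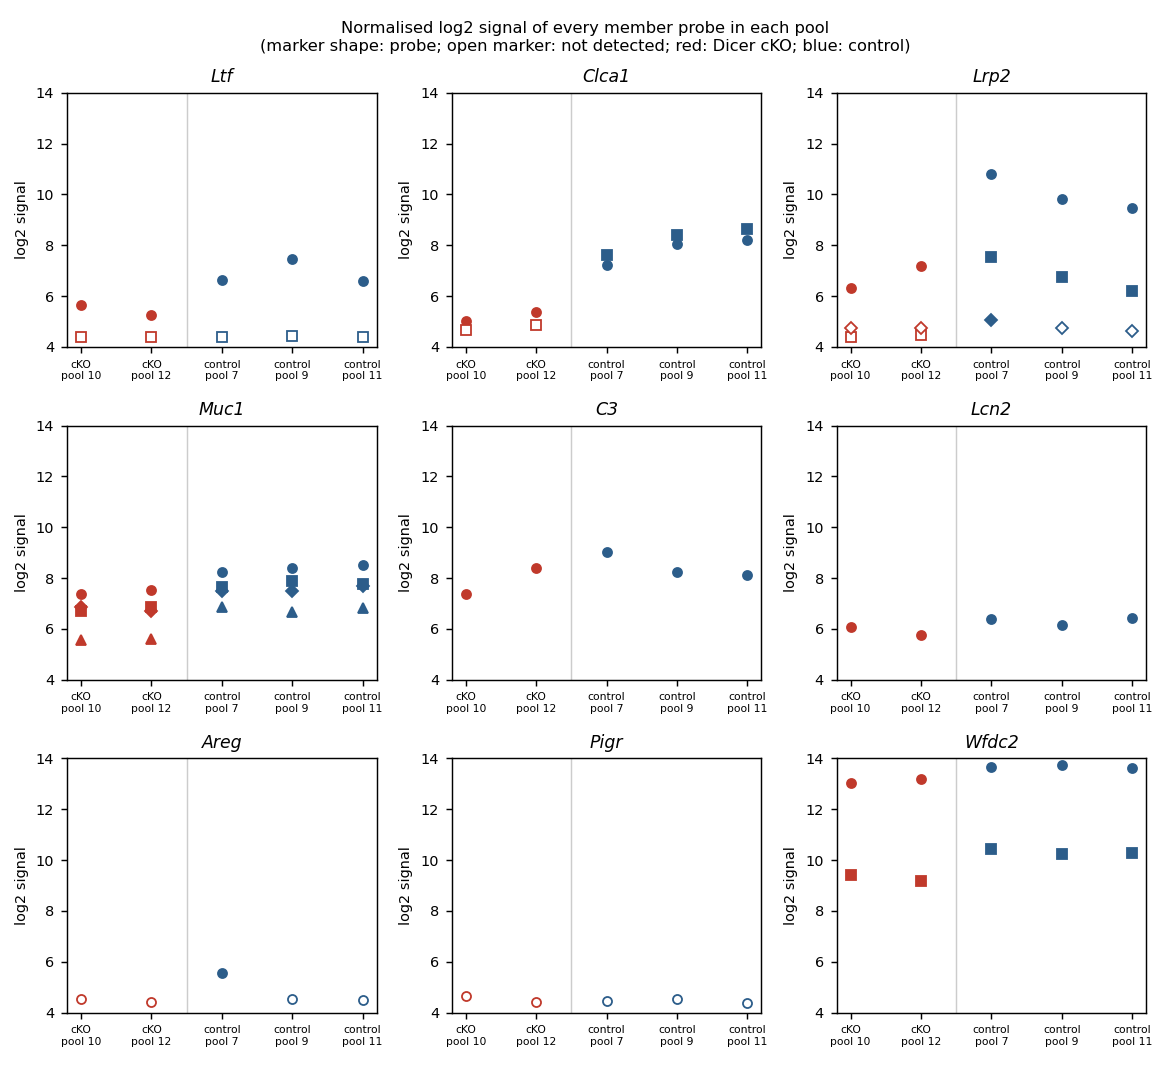
Normalised log2 signal (vertical axis) of each of the 17 member probes in the 2 Dicer cKO pools (red, left) and the 3 control pools (blue, right). Each marker is 1 array, marker shapes tell the probes of a gene apart, and open markers were not detected. The Dicer cKO markers of Clca1, Lrp2, Ltf, Muc1 and Wfdc2 lie below the control markers for each of their tested probes, those of C3 overlap, and Pigr is open throughout.

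Clca1 encodes a secreted regulator of calcium-activated chloride channels that mucus-producing epithelia release, and in the mouse uterus it is a known progesterone-responsive gene. Its brighter probe read 4.68 and 4.85 log2 units in the Dicer cKO pools, against 7.63, 8.39 and 8.65 in control pools 7, 9 and 11. The groups were far apart, and neither Dicer cKO array detected the probe. Its mean was therefore at least 9.31-fold lower in Dicer cKO uteri (fitted difference -3.46 ± 0.25, limma adjusted p = 2.95e-05). The size depends on the background step: with a background offset of 50 in place of 16 the bound was 5.06-fold and the fitted difference -2.45, and with no background correction 5.3-fold and -2.56. The second probe, detected on all arrays, read 5.04 and 5.36 in Dicer cKO pools, against 7.22, 8.06 and 8.19 in control pools. It fell by 2.63 ± 0.25 (limma adjusted p = 0.000234), and in both probes control pool 7 was the lowest control. Detection on Dicer cKO pool 10 was marginal, with a detection p of 0.0494. The relatives listed as CLCA1, CLCA2 and CLCA4, older names that now belong to other genes, were detected on no array, and Clca2, listed as AI586120, differed by -0.15 ± 0.13 (limma adjusted p = 0.608). Whether the Clca1 probes tell the near relatives apart was not tested.

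Lrp2, or megalin, is a large apical endocytic receptor that takes up lipoproteins, vitamin carriers and hormone-binding proteins. Its brightest probe read 6.31 and 7.17 in Dicer cKO pools, against 10.80, 9.82 and 9.46 in control pools. The higher Dicer cKO pool was 2.29 log2 units below the lowest control, and the control pools spanned 1.34 units. The difference was -3.29 ± 0.34, a 9.75-fold lower mean (limma adjusted p = 0.000381). With a robust estimate of the spread the call was lost (limma adjusted p = 0.0812). A second probe read 4.38 and 4.46 in Dicer cKO pools, where it was not detected, against 7.53, 6.75 and 6.20 in control pools, at least 3.54-fold lower in Dicer cKO uteri (limma adjusted p = 0.00109) and at least 2.26-fold with an offset of 50. Both probes put control pool 7 highest and pool 11 lowest. The third was detected in control pool 7 alone and was not tested. Of its partners, the chaperone gene Lrpap1 fell (-0.54 ± 0.12, limma adjusted p = 0.0222). That call was lost in 4 of 14 alternative settings. The adaptor Dab2 differed by -0.16 ± 0.10, while the co-receptor genes Cubn and Amn were not tested. Of 12 tested genes of the LDL receptor family and these partners, 1 rose and 1 fell, with a median of 0.03; the one that rose was Lrp8, a receptor of reelin, at 1.06 ± 0.14.

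Ltf encodes lactoferrin, an iron-binding antimicrobial protein and a classical oestrogen-induced secretion of the mouse uterus. It read 5.67 and 5.26 in Dicer cKO pools, against 6.62, 7.47 and 6.61 in control pools. Control pool 9 stood highest, and the groups did not overlap. The difference was -1.44 ± 0.25, a 2.7-fold lower mean (limma adjusted p = 0.00718). Leaving out either Dicer cKO pool ended the call, with a limma adjusted p of 0.0502 without pool 10 and 0.0663 without pool 12. Its other probe was detected on no array.

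Lcn2, a lipocalin that binds bacterial iron carriers, read 6.08 and 5.75 in Dicer cKO pools, against 6.40, 6.15 and 6.41 in control pools. The Dicer cKO pools lay just below the controls, the nearest by 0.075 units. The difference of -0.41 ± 0.15 did not pass (limma adjusted p = 0.171), with a 95% interval from -0.75 to -0.07 before adjustment. It was -0.58 without Dicer cKO pool 10 and -0.24 without pool 12, and neither passed. Neutrophil granules also hold the Ltf and Lcn2 products. Of 12 neutrophil granule genes on the array, 7 were detected on none of the arrays, Mpo, Camp, Ngp, Ctsg, Mmp8, Cxcr2 and Retnlg. Among the 5 tested, 0 were called by limma, and their mean log2 signal ran from 5.58 to 5.83 in Dicer cKO pools, against 5.61 to 6.11 in control pools. The largest moderated statistics were those of Mmp9 (-0.24 ± 0.16) and Prtn3 (-0.12 ± 0.15). Of 10 tested lipocalins and transferrin relatives, 2 rose and 2 fell, with a median of -0.03. The prostaglandin synthase gene Ptgds, detected on no control array, was at least 1.38-fold higher in Dicer cKO uteri, a call lost without control pool 7 or 9, and the transferrin receptor gene Tfrc rose by 0.79 ± 0.14. Apod, detected on no Dicer cKO array, was at least 1.34-fold lower there. The calls of Tfrc and Apod were lost without Dicer cKO pool 10. Meltf, a membrane-bound transferrin relative, fell (-0.76 ± 0.19), a call lost in 7 of 14 alternative settings.

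Muc1, a membrane-anchored mucin that covers the apical surface of the uterine lumen, fell by a similar amount on each of its 4 probes. The brightest read 7.37 and 7.54 in Dicer cKO pools, against 8.25, 8.40 and 8.50 in control pools. Replicates were close, with a range of 0.17 in the Dicer cKO pools and 0.25 in the control pools. The difference was -0.93 ± 0.12, a 1.9-fold lower mean (limma adjusted p = 0.00125). The other probes differed by -0.98 ± 0.12, -0.79 ± 0.12 and -1.19 ± 0.13, all called. Of 10 other mucin genes on the array, 4 were tested and 0 called by limma, with a median of 0.01. Muc3, detected on no Dicer cKO array (at least 1.13-fold lower there, limma adjusted p = 0.0848), and Muc16 (0.43 ± 0.18, limma adjusted p = 0.214), listed as 1110008I14Rik, had the largest moderated statistics.

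Wfdc2, a small secreted protein with a whey acidic protein core known as HE4, was read by 2 probes. The brighter gave 13.04 and 13.17 in Dicer cKO pools, against 13.66, 13.73 and 13.64 in control pools, a difference of -0.57 ± 0.07 (limma adjusted p = 0.00094). The dimmer gave 9.40 and 9.16 in Dicer cKO pools, against 10.45, 10.23 and 10.28 in control pools, a difference of -1.04 ± 0.10 (limma adjusted p = 0.000301). Both were clear of the spread within groups, with unequal sizes of 1.48-fold and 2.06-fold lower means. Of 8 tested relatives with this core, 3 fell and none rose, with a median of -0.42. Wfdc15b fell by 1.44 ± 0.08, with 8.92 and 8.92 in Dicer cKO pools, against 10.36, 10.36 and 10.37 in control pools. Wfdc3, listed as 1700127F16Rik and detected on no Dicer cKO array, was at least 1.36-fold lower there, and Wfdc10 fell (-0.70 ± 0.17), calls lost in 4 of 13 and 7 of 14 alternative settings. The protease inhibitor gene Slpi differed by 0.04 ± 0.15 (limma adjusted p = 0.923).

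C3, the central complement component and an oestrogen-induced secretion of the rodent uterus, did not separate the groups. It read 7.39 and 8.41 in Dicer cKO pools, against 9.03, 8.22 and 8.12 in control pools. Dicer cKO pool 12 lay above control pools 9 and 11. The difference was -0.56 ± 0.30 (limma adjusted p = 0.353; 95% interval from -1.23 to 0.11). It was -0.27 without control pool 7, -0.05 without Dicer cKO pool 10 and -1.07 without pool 12, and none passed (limma adjusted p = 0.701, 0.969 and 0.0872). Of 16 other complement genes tested, 1 rose and 3 fell, with a median of 0.01. Cfd, or adipsin (-1.38 ± 0.33), the regulator gene Cd55 (-0.62 ± 0.15) and the C1 inhibitor gene Serping1 (-0.48 ± 0.11) fell, while C1qb rose by 0.56 ± 0.13. Each of these calls was lost in at least 5 of 14 alternative settings.

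Areg and Pigr gave no usable difference. Areg, an EGF receptor ligand and a known progesterone target of the uterine epithelium, was detected in control pool 7 alone, at 5.55, where control pools 9 and 11 read 4.54 and 4.50 and Dicer cKO pools 4.54 and 4.42. Of 12 tested EGF ligands, receptors and sheddases, 2 fell and none rose, with a median of -0.06. They were the ligand gene Nrg4 (-0.76 ± 0.19) and Egfr (-0.45 ± 0.10), listed as 9030024J15Rik, and these calls were lost in 8 and 6 of 14 alternative settings. Pigr carries antibodies across epithelia, and its probe was detected on none of the arrays, with log2 values of 4.65 and 4.42 in Dicer cKO pools, against 4.44, 4.52 and 4.39 in control pools. Of the B and plasma cell markers, Cd79a, Ms4a1, Pax5 and Cd22 were detected on no array and 0 of 6 tested were called by limma. The largest moderated statistics among them were those of Jchain (0.28 ± 0.16) and Mzb1 (-0.24 ± 0.22).

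**Figure D2:**
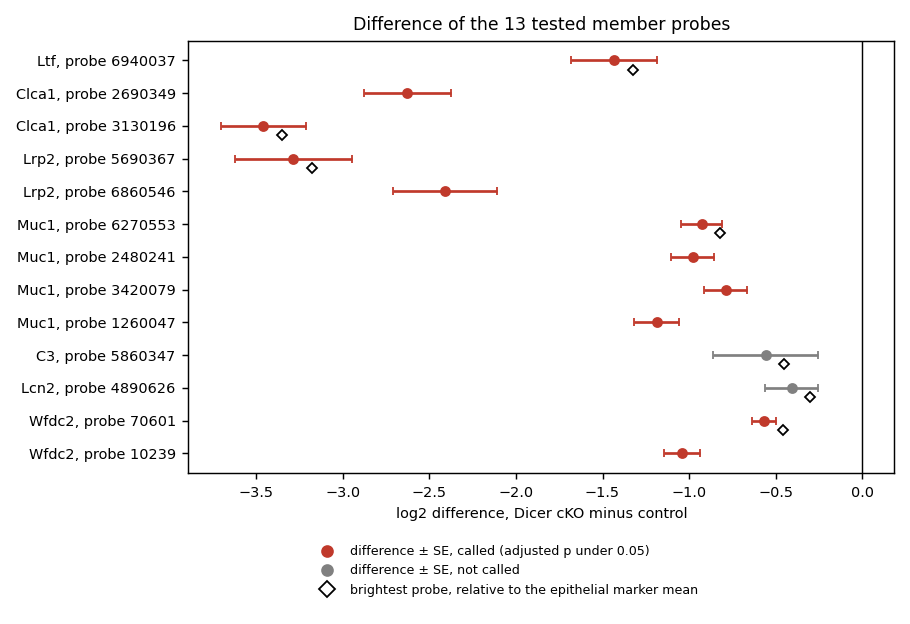
Log2 difference, Dicer cKO minus control (horizontal axis), of the 13 tested member probes, with the standard error of the fit. Red probes were called at a limma adjusted p under 0.05, grey probes were not, and open diamonds give the brightest probe after the epithelial marker mean of each array was subtracted. Clca1 and Lrp2 reach -3.46 and -3.29, Muc1 probes lie between -0.79 and -1.19, and each diamond lies 0.11 to the right of its probe.

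The control pools did not rank alike for these genes. Pool 7 was highest for Lrp2 and C3 and lowest for Clca1, while pool 9 was highest for Ltf. For Muc1 the order of the control pools differed between its probes. The range among control pools was 1.34 for Lrp2, 1.02 for Clca1, 0.91 for C3 and 0.86 for Ltf, against a median of 0.22 over all tested probes. It was 0.09 for Wfdc2. Within the Dicer cKO pools C3 and Lrp2 spread most, by 1.02 and 0.86, against a median of 0.15 over all tested probes.

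Epithelial markers as a list moved little while single markers moved both ways. Of 22 tested, 5 rose and 6 fell, with a median of -0.02. Spint1 rose by 0.82 ± 0.10, while Cldn3 (-1.48 ± 0.17), Rab25 (-1.20 ± 0.10) and Krt18 (-0.86 ± 0.09) fell. Over the alternative settings 1 to 5 of these markers were called higher and 3 to 6 lower. Their mean log2 signal was 8.41 and 8.36 in Dicer cKO pools, against 8.59, 8.46 and 8.43 in control pools, a shift of -0.11. With that mean subtracted on each array, the median difference of all tested probes was 0.12, against 0.01 before. The 5 called members were called lower on this scale too, at -2.52 ± 0.25 for the Clca1 probe detected on all arrays, -3.18 ± 0.27 for Lrp2, -1.33 ± 0.23 for Ltf, -0.82 ± 0.15 for Muc1 and -0.46 ± 0.11 for Wfdc2 (limma adjusted p from 6.65e-07 to 0.0154). Over all tested probes this scale gave 566 lower and 973 higher calls (2.48% and 4.26%), against 804 and 536 before.

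Some gland and adipocyte markers were lower in the same pools as the members, and their part in the results was not tested. Of 9 tested gland markers 5 fell and 1 rose, with a median of -0.83. Cxcl15 (-2.70 ± 0.20), Cldn10 (-2.23 ± 0.12) and Lgr5 (-0.95 ± 0.10) fell, whereas Wnt7a rose by 0.89 ± 0.23, a call lost in 9 of 14 alternative settings. The gland list averaged 6.98 and 7.16 log2 units in Dicer cKO pools, against 7.80, 7.92 and 7.85 in control pools, with Prss28 and Prss29 detected on no array. Of 8 tested adipocyte markers 3 fell and none rose, with a median of -0.64. They were Adipoq (-1.42 ± 0.29), Cfd as given above, and Cidec (-1.06 ± 0.27), calls lost in 3, 5 and 12 of 14 alternative settings. None of the 8 was called without Dicer cKO pool 10, with a robust spread or without the intensity trend, and 1 was called without control pool 7. Lpl (0.10 ± 0.11) and Lipe (-0.03 ± 0.14), enzymes of fat uptake and release, were not called. Car3 had a large difference but just missed the call (-1.35 ± 0.36, limma adjusted p = 0.0534). The adipocyte list averaged 7.22 and 7.74 in Dicer cKO pools, against 8.55, 7.88 and 8.09 in control pools, with Plin1, Fabp4, Retn and Cidea detected on no array. Its lowest pool, Dicer cKO 10, and its highest, control 7, were also those of Lrp2 and C3.

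**Figure D3:**
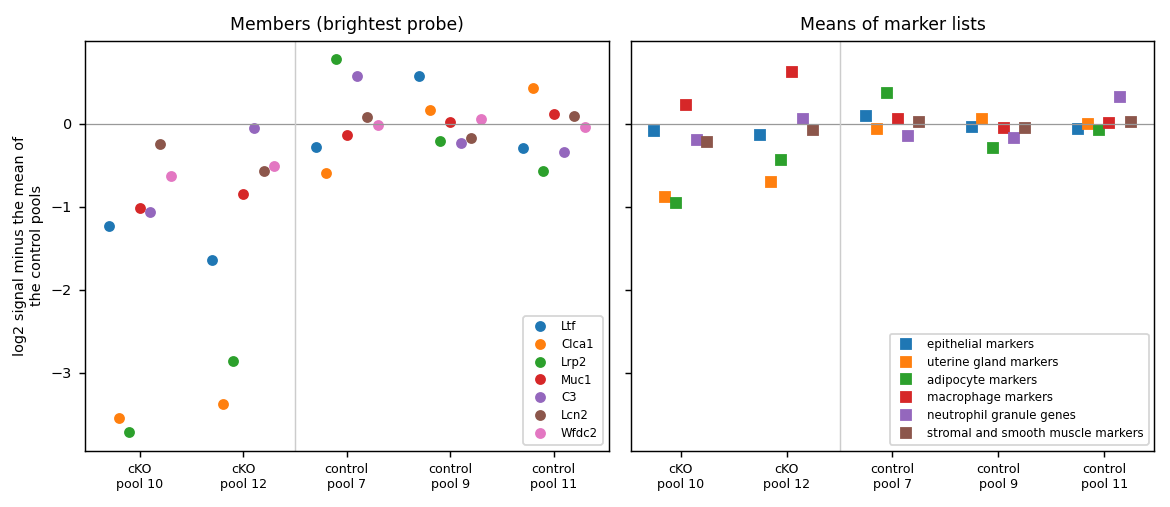
Log2 signal minus the mean of the control pools (vertical axis) in each Dicer cKO pool (left) and control pool (right), for the brightest probe of 7 members (circles) and for the means of 6 marker lists (squares). Clca1 and Lrp2 lie furthest below 0 in both Dicer cKO pools, C3 is near 0 in Dicer cKO pool 12, and the epithelial list stays near 0.

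The receptors and other steroid-responsive genes did not all move the same way as the members. Pgr, which encodes the progesterone receptor, read 7.65 and 7.88 in Dicer cKO pools, against 8.31, 8.73 and 8.56 in control pools, and fell by 0.77 ± 0.14 (limma adjusted p = 0.00793). The call was lost without Dicer cKO pool 10. Its locus also drives the Cre. The only tested probe of Esr1, the oestrogen receptor gene, differed by -0.12 ± 0.09 (limma adjusted p = 0.505). Its other probes were detected on 1 array or none. Of 14 tested progesterone-responsive genes of the uterine epithelium 5 fell and 1 rose, with a median of -0.35. The sulfotransferase gene Sult1d1 (-2.68 ± 0.40), the histamine-forming enzyme gene Hdc (-2.13 ± 0.38) and the hedgehog ligand gene Ihh (-1.96 ± 0.24) fell. Spp1, the secreted matrix protein osteopontin, which macrophages also make, was detected on no control array and was at least 2.88-fold higher in Dicer cKO uteri. The Hdc call was lost without Dicer cKO pool 10 and, like that of Sult1d1, with a robust spread. The count that fell was 2 or 3 in 9 of the 14 alternative settings. Hdc read 9.31 and 10.45 in Dicer cKO pools, against 12.78, 11.93 and 11.32 in control pools, the same order of pools as Lrp2.

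Among 20 tested oestrogen-responsive genes, 7 rose and 2 fell, with a median of 0.21. The connexin gene Gjb2 rose by 1.90 ± 0.20, Wnt4 by 1.52 ± 0.19 and the activin subunit gene Inhbb by 1.49 ± 0.28. The cytokine receptor gene Il17rb fell by 2.20 ± 0.15. Sprr2f and Sprr2g, cornified envelope precursors of a family of similar sequences, rose by 1.04 ± 0.13 and 1.0 ± 0.16, while Ltf fell in the same pools. Without Dicer cKO pool 10, 4 genes of this list rose and 1 fell, and Inhbb and Sprr2g were no longer called. The Inhbb call was also lost without Dicer cKO pool 12.

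**Figure D4:**
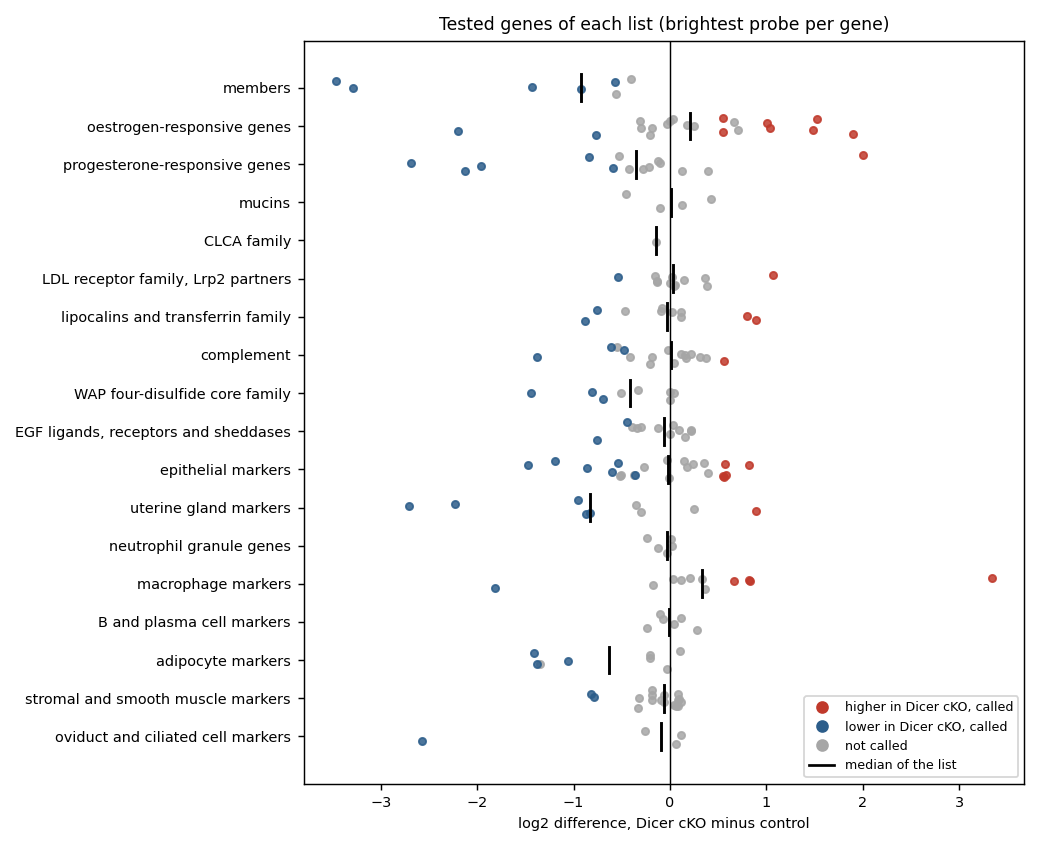
Log2 difference, Dicer cKO minus control (horizontal axis), of each tested gene in the members and the other 17 lists, with 1 point for the brightest probe of a gene. Red points were called higher, blue points lower, grey points were not called, and black bars are medians, from -0.93 for the members to 0.33 for macrophage markers.

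The genes closest in pattern to each member were those with the smallest root mean square difference over the 5 arrays, after each gene was centred on its own mean, among 12265 named genes. For Lrp2 they were the zinc transporter gene Slc39a4 and the secreted phospholipase gene Pla2g10, at 0.26 and 0.27 log2 units, against a median of 1.70. For Clca1 they were Elapor1 and Mia, at 0.42 and 0.48, against 1.74, but its probe and that of Mia were detected on no Dicer cKO array, so these distances compare background levels there. Ltf was nearest to Aldoc and Cbs, enzymes of glycolysis and of sulfur amino acid metabolism, at 0.24 and 0.27, against 0.80. Muc1 was nearest to the ephrin receptor gene Epha3 and the cadherin gene Cdh16, both at 0.07, against 0.48, and Wfdc2 to Actn2 and Ccl11, at 0.01 and 0.03, against 0.31. C3 was nearest to Clec2d and the chemokine gene Ccl8, at 0.12 and 0.14, against 0.55. These read 8.05 and 9.28 (Clec2d) and 4.89 and 5.86 (Ccl8) in Dicer cKO pools, against 9.52, 8.89 and 8.77 and 6.49, 6.03 and 5.76 in control pools. Lcn2 was nearest to Alox5, detected on no Dicer cKO array, and Matk, at 0.04 for both, against 0.28. Each pair was picked as the nearest of all candidates, so a distance below the median was fixed in advance. Shared control of these genes was not tested.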

How the data were processed

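Each sample was a pool of uteri read on 1 bead array. The deposited intensity is a mean per probe, not normalized between arrays as its values show, made with BeadStudio (version not stated) per the submitters' processing notes. The deposited signal SD of the beads, count of beads and detection score (a fraction rising with signal) were also read; 1 minus the score served as detection p. The whole-series table was not used, since no column pairs its rows with probes.

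Background was corrected by normexp from detection p (offset 16), with quantile normalization and log2 (neqc, limma 3.58.1, R 4.3.3). The 22845 probes with detection p under 0.05 on at least 2 of 5 arrays were fitted with lmFit and eBayes (intensity trend, no covariate, 2-sided) and p-values adjusted by Benjamini-Hochberg over all of them. The fit was tested on simulated data. P-values measure the spread between pools; an exact permutation test of 5 pools has 10 splits and cannot go below p = 0.1. Bounds set a probe undetected throughout a group at the higher of its own signal and the lowest detected signal of each array. Names were updated with RefSeq (GRCm38.p6): 22862 of 45281 probes carried a current symbol and 11917 a synonym of 1 gene. A gene is represented by its brightest probe. All member probes are named; of other lists, up to 4 called genes with the largest difference, or 2 by moderated t where none was called, the 2 genes nearest in pattern to each member, and Pgr and Esr1. Genes named beyond that rule were chosen after their values were seen. They were Dab2, Slpi, Clca relatives, Sprr2f, Sprr2g, Foxj1, Mpeg1, Lpl, Lipe, Car3, Krt8, Cdh1, Dicer1 and undetected markers. Members and lists were chosen with earlier results of these data known. Slide and scan are not stated in the files, so no batch was tested.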

Additional observations from a re-analysis of the deposited data

How the results depend on the processing

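Across 14 alternative settings the members called lower numbered 4 or 5 and those called higher 0, and Clca1, Muc1 and Wfdc2 kept their calls wherever their brightest probe was tested. Ltf was not called without either Dicer cKO pool, and its difference ran from -1.65 to -1.15 with a pool left out. Lrp2 (-3.29) was not called with a robust spread; the cause was not tested. Its difference ran from -3.72 to -2.85 with a pool left out. An offset of 50 put Ltf at -0.98, the brighter Clca1 probe at -2.45 and the second Lrp2 probe at -1.43, and no background correction put the brighter Clca1 probe at -2.56; both settings leave more background in dim probes, which compresses differences. Over the other lists, 35 genes were lower and 22 higher; without the intensity trend 21 were lower. With a pool left out, 13 to 32 were lower and 11 to 19 higher, the fewest without Dicer cKO pool 10. Over all tested probes, leaving out that pool gave 252 lower and 104 higher calls, against 804 and 536. Without control pool 7 it was 510 and 281, without control pool 9, 292 were higher, and without the intensity trend 349 were higher. The difference of every tested member probe stayed negative in every setting where it was tested. In several single lists the number called was also smaller in some settings. No paired analysis was possible because the groups share no pool number. The deposited normalized table was not run, since its rows could not be matched. For Areg and Pigr, signal over background limits what could be measured.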

Other observations

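Macrophage markers were higher in part. Of 11 tested, 4 rose and 1 fell, with a median of 0.33. Gpnmb, a glycoprotein of lysosome-rich cells, rose by 3.34 ± 0.20, the lysozyme gene Lyz2 by 0.83 ± 0.13 and Cd68 by 0.81 ± 0.13, while Cd14 fell by 1.81 ± 0.17. Mpeg1 rose by 0.66 ± 0.17, a call kept in only 4 of 14 alternative settings. Cd14 read 8.0 and 8.41 in Dicer cKO pools, against 10.36, 9.96 and 9.74 in control pools, the same order of pools as Lrp2 and Hdc. The macrophage list averaged 7.30 and 7.69 in Dicer cKO pools, against 7.12, 7.01 and 7.07 in control pools.

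Stromal and smooth muscle markers changed little. Of 17 tested, 2 fell and none rose, with a median of -0.06: they were Vim (-0.82 ± 0.12) and Thy1 (-0.79 ± 0.11), and the Vim call was lost without Dicer cKO pool 10. Of 4 tested oviduct and ciliated cell markers, 1 fell and none rose. It was the oviductal glycoprotein gene Ovgp1, at 5.17 and 5.07 in Dicer cKO pools, against 7.88, 8.50 and 6.71 in control pools. Like Ltf, it was highest in control pool 9. Its call was lost with a robust spread and without Dicer cKO pool 10. Foxj1, a ciliated cell regulator, differed by 0.12 ± 0.14.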
